A study of Mus musculus with 16 samples.

Results

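The clustered protocadherins are cell adhesion proteins of the cadherin superfamily, encoded in 3 neighbouring gene clusters named alpha, beta and gamma. Each alpha or gamma member joins its own large exon, which encodes the extracellular part and the membrane span, to a set of small constant exons shared by the whole cluster. Beta members lack constant exons and so lack a shared cytoplasmic tail. Every member starts from its own promoter, and loops formed by CTCF and cohesin bring a chosen promoter to distant enhancers. In most cortical neurons the alternate members (numbered alpha, beta, gamma A and gamma B) are chosen at random and differ from cell to cell, while the C-type members at the end of the alpha and gamma clusters are used more broadly. The proteins pair with identical proteins on the facing membrane and are known for self-avoidance of dendrites, spacing of axons and survival of interneurons.

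Members were taken as every row whose symbol starts with Pcdha, Pcdhb, Pcdhga, Pcdhgb or Pcdhgc and that had a read in at least 1 of 12 RNA-seq libraries, which gave 59 of 24421 rows. These were 15 alpha, 22 beta and 22 gamma rows, 5 of them C-type (Pcdhac1, Pcdhac2, Pcdhgc3, Pcdhgc4 and Pcdhgc5). In RefSeq annotation on GRCm38.p6 all members lie on the + strand of chromosome 18, the alpha cluster at chr18:36930285-37188897, the beta cluster at chr18:37264998-37521419 and the gamma cluster at chr18:37661775-37841873. Somatosensory cortex was collected at ZT4 from mice aged 2 to 3 months, kept on a light-dark cycle of 12 h each. Wild-type C57BL/6 mice and homozygous mice lacking the IL1 receptor accessory protein AcPb (AcPbKO), the neuron-specific form of Il1rap, were sleep disrupted (SD) by gentle handling from ZT20 to ZT4 or left undisturbed (controls, CTL). With 3 libraries each, the 4 groups were CTL-WT, SD-WT, CTL-AcPbKO and SD-AcPbKO. A further 4 labelled samples, 1 SD-WT, 1 SD-AcPbKO and 2 CTL-AcPbKO, were not analysed here. Libraries are named below by the replicate numbers of the labels, and in each list of 3 values the order is 01, 02 and 03 for CTL-WT, 01, 02 and 04 for SD-WT, 03, 04 and 05 for CTL-AcPbKO and 02, 03 and 04 for SD-AcPbKO.

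Reads on genes numbered 26504840 to 41615582 in the 6 control libraries and 58770286 to 71857505 in the 6 SD libraries, so depth and SD moved together. Values per library are counts divided by size factors computed over all 12 libraries, called normalized counts, and log2 fold changes are on the log2(normalized count + 1) scale. Il1rap was counted at 1496, 1476 and 1520 normalized counts in CTL-WT, 1824, 1920 and 1729 in SD-WT, 1588, 1647 and 1515 in CTL-AcPbKO and 2062, 1928 and 1923 in SD-AcPbKO. It was not lower in AcPbKO mice, and counts over the whole gene cannot check a deletion of one isoform. The labels describe male mice, yet CTL-WT 02 and 03 and CTL-AcPbKO 04 and 05 had 25352 to 39358 reads of Xist and 0 to 2 reads over Ddx3y, Eif2s3y, Kdm5d and Uty together. The other 8 libraries had 5 to 13 reads of Xist and 5105 to 10593 reads over these Y-linked genes. Members called after SD and the gene lists were therefore also fitted across all 12 libraries with a term for Xist reads, and the members also without these 4 libraries, which leaves 1 control library for each genotype. All 10 markers of excitatory cortical neurons and all 8 of inhibitory neurons had reads in every group. The summed level of 8 choroid plexus markers was 18225 normalized counts in SD-AcPbKO 04 against at most 608 in any other library.

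Levels within the locus spanned several orders of magnitude. Per kilobase of its own exon and averaged over the 12 libraries, Pcdhgc5 stood highest at 3039 normalized counts per kb, followed by Pcdhgc3 at 1200, Pcdhac2 at 805.5 and Pcdhga11 at 469. The other C-type members were far lower, Pcdhgc4 at 220.3 and Pcdhac1 at 103. Exons on the opposite strand cover 58.9% of the own exon of Pcdhgc3 and 52.4% of that of Pcdhga11. The part of such exons in these levels was not tested. Leaving out the C-type members and those with a mean under 10 normalized counts, the median per kb was 62.9 over 9 alpha members, 77.7 over 21 beta members and 189.6 over 19 gamma members. Among them alpha ranged from 12.7 (Pcdha8) to 209.7 (Pcdha12), beta from 23.5 (Pcdhb6) to 198.7 (Pcdhb17) and gamma from 49.5 (Pcdhgb8) to 469 (Pcdhga11). For some beta members the GENCODE M21 exon length used here exceeds the whole gene in RefSeq. Examples are Pcdhb17 (4660 bases, RefSeq chr18:37485021-37488290) and Pcdhb14 (8695 bases, RefSeq chr18:37447657-37451094). Values per kb of such members would be higher with RefSeq lengths, so the beta levels depend on the annotation. These levels are averages over a piece of tissue and carry no information on how many neurons used a member. In bulk tissue, fewer cells using a member and less RNA per cell cannot be told apart.

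**Figure D1:**
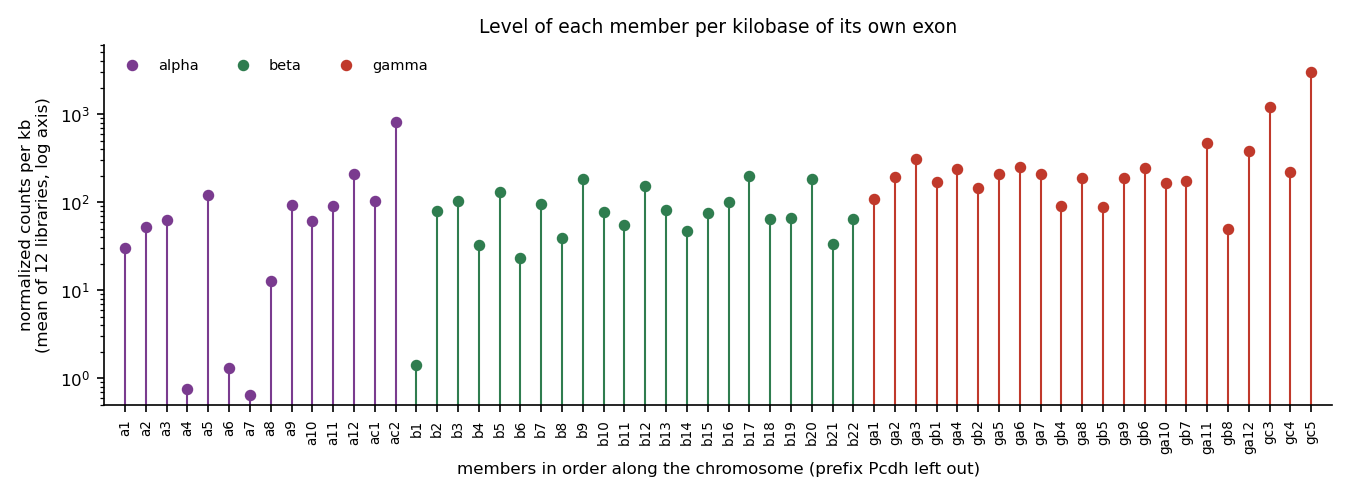
Mean normalized count of the 12 libraries per kilobase of each member's own exon (log axis), for the 58 members with an exon length, in order along chromosome 18 and coloured by cluster. Pcdhgc5, Pcdhgc3 and Pcdhac2 stand above all others, and Pcdha4, Pcdha6, Pcdha7 and Pcdhb1 sit near 1 normalized count per kb.

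Of the members, 5 had means under 10 normalized counts, namely Pcdha4, Pcdha6, Pcdha7, Pcdhb1 and the row Pcdha7-g. Pcdha4 had 0, 0 and 0 reads in CTL-WT, 4, 2 and 4 in SD-WT, 0, 1 and 0 in CTL-AcPbKO and 9, 6 and 4 in SD-AcPbKO. Its reads, not scaled for depth, were thus higher in all SD libraries than in the controls of the same genotype. The SD libraries were also the deeper ones, and no fold change is given against controls at or near 0. Its limma call after SD in both genotypes was lost with DESeq2 and with edgeR on the recovered reads. In both genotypes this call was also lost after thinning all libraries to the smallest total. In RefSeq a read-through gene model starts within 41 bases of Pcdha4, 6 bases of Pcdha6 and 9 bases of Pcdha7 and runs to the end of the gamma cluster, and Pcdha7-g is the last of these models. In GENCODE M21, which gave the exon lengths, 96.3% of the exon of Pcdha4 lies in exons of other gene models, and the part of this overlap in the low counts was not tested. At most 17 reads were counted for any of these 5 rows in a library.

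The alpha and beta clusters were lower after SD in both genotypes, and the gamma cluster was not. Summed over the 15 alpha members, CTL-WT libraries had 5332, 4779 and 4973 normalized counts and SD-WT libraries 4254, 4393 and 4055. In AcPbKO mice the alpha sums were 4837, 4995 and 4639 in controls and 4440, 3600 and 4054 after SD. Every SD library was below every control of its genotype, with group means that differed by -15.8% in WT and -16.4% in AcPbKO mice. Beta sums were 8789, 8376 and 8676 in CTL-WT and 6985, 7169 and 6783 in SD-WT, a difference of -19.0%. In AcPbKO mice they were 7586, 8463 and 8069 in controls and 7147, 6562 and 6697 after SD, a difference of -15.4%. Beta sums likewise did not overlap between SD and control libraries in either genotype. Gamma sums overlapped, with 24565, 19859 and 20380 in CTL-WT, 24937, 23838 and 20307 in SD-WT, 20683, 22414 and 20583 in CTL-AcPbKO and 24969, 20008 and 21850 in SD-AcPbKO. Their means were 6.6% higher after SD in WT and 4.94% higher in AcPbKO mice, and without Pcdhgc5 they differed by -6.34% and -6.4%, again with overlap. The gamma difference in WT changed sign when the controls with Xist reads were left out, from a log2 ratio of 0.092 to -0.093, since CTL-WT 01 lay above SD-WT 02 and 04. These sums are descriptions without a test.

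**Figure D2:**
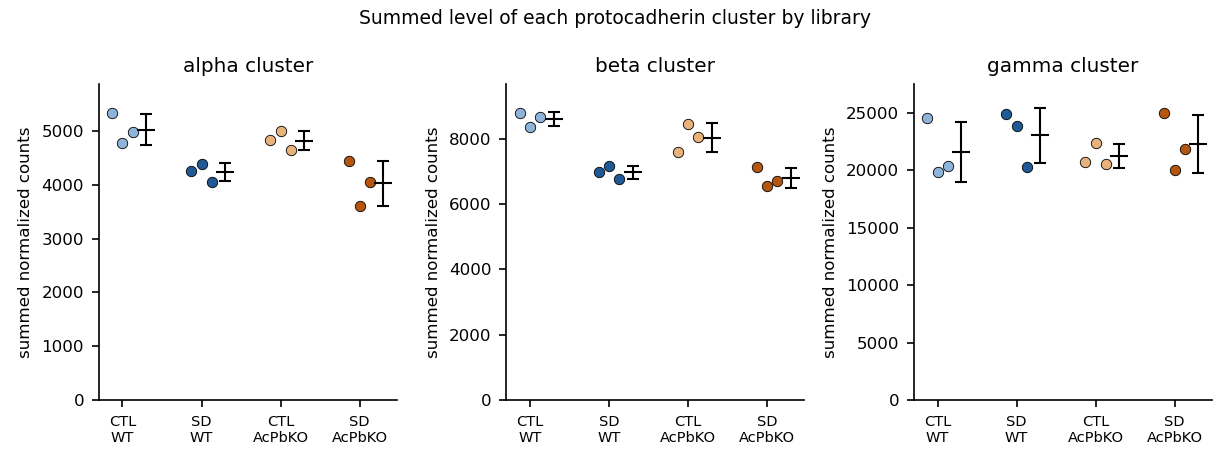
Summed normalized counts of the alpha, beta and gamma members in each library (points), with the mean and SD of the 3 libraries of each group beside them, all axes from 0. In the alpha and beta panels the SD libraries lie below the controls of the same genotype, and in the gamma panel the groups overlap.

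The makeup of the clustered protocadherin reads shifted accordingly. Alpha members took 14.3% ± 0.45 (SD, n = 3) of these reads in CTL-WT, 12.4% ± 0.63 in SD-WT, 14.2% ± 0.39 in CTL-AcPbKO and 12.2% ± 0.25 in SD-AcPbKO. Beta members took 24.5% ± 1.57, 20.5% ± 1.25, 23.6% ± 0.67 and 20.6% ± 1.1 in the same order. The gamma share was 61.2% ± 2.01, 67.2% ± 1.87, 62.3% ± 0.37 and 67.2% ± 1.0, and the C-type share 38.7% ± 1.76, 45.3% ± 0.79, 39.7% ± 1.09 and 44.7% ± 1.2. Shares of a fixed total constrain each other and do not depend on the size factors. Summed over the whole family, normalized counts were 35243 ± 3024 (SD, n = 3) in CTL-WT, 34240 ± 2708 in SD-WT, 34090 ± 1546 in CTL-AcPbKO and 33109 ± 3223 in SD-AcPbKO, and all groups overlapped.

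Member by member, 15 of 59 passed the limma test (adjusted p under 0.05 over all genes) between SD-WT and CTL-WT, 13 lower and 2 higher after SD. Over all 20417 genes tested 25.4% were called, the same share as of the members, also 25.4%. Of genes with a mean of at least 10 normalized counts 31.1% were called, against 25.9% of the 54 members at that level. The directions were less even, since 22.0% of the members were called lower against 12.2% of all genes and 3.39% higher against 13.2%. In 18 members (30.5%) every SD-WT library lay below every control, against 19.7% of all genes. The median log2 fold change of the members was -0.18, beside -0.0039 over all genes. Between SD-AcPbKO and CTL-AcPbKO, again 15 of 59 passed (25.4% against 27.4% of 20574 genes), 12 lower (20.3% against 13.3%) and 3 higher (5.08% against 14.1%). Here 18 members (30.5%) had every SD library below every control, against 20.7% of all genes, and the medians were -0.14 for members and 0.01 for all genes. At a mean of at least 10 normalized counts, 34.1% of genes were called in AcPbKO mice, against 25.9% of members.

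By cluster, beta had the most calls in WT mice, 9 of 22 lower and 0 higher, with 20 of 22 log2 fold changes negative and a median of -0.29. In AcPbKO mice 6 of 22 beta members were lower and 0 higher, 17 were negative and the median was -0.26. Of the 15 alpha members, 3 were lower and 1 higher in WT and 5 lower and 1 higher in AcPbKO mice, the higher one being Pcdha4 with its handful of reads. Of the 22 gamma members, 1 was lower and 1 higher in WT and 1 lower and 2 higher in AcPbKO mice. Gamma A members leaned lower (medians -0.15 and -0.12 over 12), whereas gamma B had medians of 0.08 and -0.09 over 7.

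**Figure D3:**
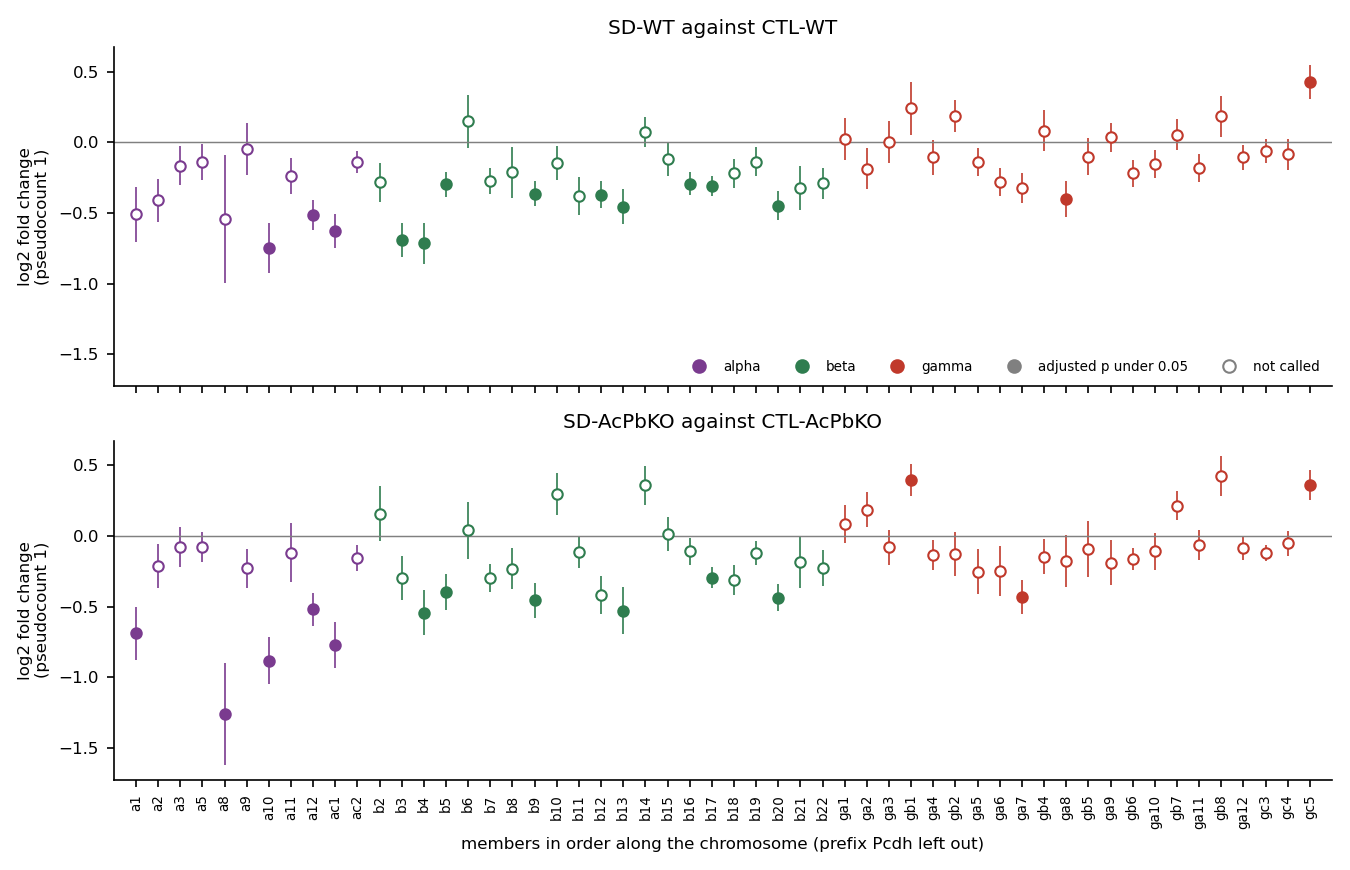
Log2 fold change after SD with its SE for the 54 members with a mean of at least 10 normalized counts, in order along chromosome 18, for WT (top) and AcPbKO mice (bottom), with called members filled. Called alpha and beta members all lie below 0 in both panels, and Pcdhgc5 at the far right is called above 0 in both.

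A fit of all 12 libraries together called 14 members in WT and 17 in AcPbKO mice, and kept 12 of the 15 calls of each genotype. Of all genes, this fit called 12.7% higher and 11.7% lower in WT, and 15.7% higher and 15.2% lower in AcPbKO mice. With a term for Xist reads added to this fit, 9 members were called in WT and 10 in AcPbKO mice. Of the 15 calls of each genotype, 7 were kept in WT and 9 in AcPbKO mice. With this term 10.6% of all genes were called higher and 8.72% lower in WT, and 13.1% and 11.6% in AcPbKO mice. Without the 4 libraries with Xist reads, 1 member was called in WT and 3 in AcPbKO mice, with 1 control library a genotype. In neither fit did a called member change direction. Leaving out SD-WT 02 gave 9 WT calls, and leaving out CTL-AcPbKO 04, SD-AcPbKO 02, 03 or 04 gave 5, 8, 9 and 7 calls in AcPbKO mice.

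Among the alternate alpha members, Pcdha10 had 205, 224 and 194 normalized counts in WT controls, 123, 97.1 and 157 in SD-WT, 183, 205 and 164 in AcPbKO controls and 116, 87 and 95.1 in SD-AcPbKO. The SD libraries of both genotypes lay below all controls of that genotype. Its log2 fold change was -0.75 ± 0.17 (SE) in WT (limma adjusted p = 0.0116) and -0.88 ± 0.17 in AcPbKO mice (limma adjusted p = 0.00568). The WT call of Pcdha10 was lost in 1 of 6 fits without a library. Pcdha12, the alternate alpha member with the highest level, had 768, 599 and 640.4 normalized counts in WT controls, 466, 494 and 439.9 in SD-WT, 507, 641 and 518 in AcPbKO controls and 369, 363 and 424 in SD-AcPbKO. It too was lower in every SD library, with log2 fold changes of -0.51 ± 0.11 in WT (limma adjusted p = 0.00644) and -0.52 ± 0.12 in AcPbKO mice (limma adjusted p = 0.0125). The AcPbKO call of Pcdha12 was lost in 1 of 6 fits without a library. Exons on the opposite strand cover 21.5% of its own exon, and whether the counting used strand is not given in the sources used here. Pcdha12 was the single member still called in WT without the libraries with Xist reads (log2 fold change -0.72, limma adjusted p = 0.0458).

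Pcdha1 had 92.4, 69 and 88.3 normalized counts in WT controls, 60.7, 63.9 and 49.6 in SD-WT, 93.9, 109 and 99 in AcPbKO controls and 52.7, 62.2 and 72.4 in SD-AcPbKO. All SD libraries were below their controls, and it passed the test in AcPbKO mice (-0.69 ± 0.19, limma adjusted p = 0.0252) but not in WT (-0.51 ± 0.19, limma adjusted p = 0.0778). Its AcPbKO call was lost in 4 of 6 fits without a library and without the libraries with Xist reads (-0.59, limma adjusted p = 0.168), and kept with the Xist term (limma adjusted p = 0.0363). Pcdha8 was scarce and uneven, with 17.7, 53.5 and 45.8 normalized counts in WT controls, 43.8, 17.4 and 17.8 in SD-WT, 43.1, 47.7 and 35.4 in AcPbKO controls and 28.7, 10.5 and 15.6 in SD-AcPbKO. It fell in AcPbKO mice (-1.26 ± 0.36, limma adjusted p = 0.0313), while WT groups overlapped. The call was lost in 4 of 6 fits without a library and in the fit of all 12 libraries, both without (limma adjusted p = 0.055) and with the Xist term (-0.81, limma adjusted p = 0.309). Pcdha5, second among the alternate alpha members by level, had overlapping groups and log2 fold changes of -0.14 ± 0.13 and -0.08 ± 0.11.

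The alpha C-type members differed from each other. Pcdhac1 had 289.9, 338 and 374 normalized counts in WT controls, 210.3, 210.0 and 224 in SD-WT, 257, 311 and 395 in AcPbKO controls and 196, 185 and 174 in SD-AcPbKO. The SD libraries of each genotype were close together and below every control, with log2 fold changes of -0.63 ± 0.12 in WT (limma adjusted p = 0.00457) and -0.77 ± 0.16 in AcPbKO mice (limma adjusted p = 0.00916). Controls with Xist reads were the higher ones in both genotypes, and with the Xist term the WT value was -0.38 (limma adjusted p = 0.0667) and the AcPbKO value -0.53 (limma adjusted p = 0.0139). Pcdhac2, which is used by serotonergic neurons to space their axons and is also made in cortex, had 2796, 2432 and 2475 normalized counts in WT controls, 2388, 2470 and 2130 in SD-WT, 2644, 2624 and 2407 in AcPbKO controls and 2591, 2013 and 2299 in SD-AcPbKO. The groups overlapped and neither change passed the test (-0.14 ± 0.08 and -0.16 ± 0.09, limma adjusted p = 0.217 and 0.255). Pcdhac2 reads made up 51.0% ± 1.34 of alpha reads in CTL-WT, 55.0% ± 2.11 in SD-WT, 53.0% ± 1.46 in CTL-AcPbKO and 57.0% ± 1.24 in SD-AcPbKO.

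Of the beta members, Pcdhb17 had the highest level. It had 1009, 1014 and 1063 normalized counts in WT controls, 817, 852 and 823 in SD-WT, 1051, 1045 and 955 in AcPbKO controls and 815, 796 and 869 in SD-AcPbKO. No SD library reached a control of its genotype, and the log2 fold change was -0.31 ± 0.07 in WT (limma adjusted p = 0.00886) and -0.30 ± 0.07 in AcPbKO mice (limma adjusted p = 0.0187). It stayed past the threshold with the Xist term in both genotypes (limma adjusted p = 0.0145 and 0.0126). The AcPbKO call of Pcdhb17 was lost in 2 of 6 fits without a library. Pcdhb20 had 803, 699 and 739.8 normalized counts in WT controls, 560.0, 612 and 478 in SD-WT, 736, 768 and 759.8 in AcPbKO controls and 626, 541 and 508 in SD-AcPbKO. It was likewise lower in all SD libraries, with log2 fold changes of -0.45 ± 0.10 and -0.44 ± 0.09 (limma adjusted p = 0.0116 and 0.00993), and stayed past the threshold with the Xist term (limma adjusted p = 0.0197 and 0.0164).

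Pcdhb4 showed one of the steepest declines, with 137, 142 and 158 normalized counts in WT controls, 93, 82.2 and 89.6 in SD-WT, 137, 166 and 153 in AcPbKO controls and 112, 109.9 and 89.4 in SD-AcPbKO. Groups did not overlap in either genotype, and the log2 fold changes were -0.72 ± 0.14 and -0.54 ± 0.16 (limma adjusted p = 0.00583 and 0.0346). The call was kept with the Xist term in WT (-0.60, limma adjusted p = 0.0254), while in AcPbKO mice it was lost with that term (-0.43, limma adjusted p = 0.0782) and in 4 of 6 fits without a library. Its neighbour Pcdhb3 had 453, 503 and 592 normalized counts in WT controls, 332, 337 and 286 in SD-WT, 309, 479 and 420.2 in AcPbKO controls and 342, 319 and 304 in SD-AcPbKO. It was called in WT (-0.69 ± 0.12, limma adjusted p = 0.00297) and not in AcPbKO mice (-0.30 ± 0.16, limma adjusted p = 0.201), where CTL-AcPbKO 03 lay among the SD libraries. Without CTL-AcPbKO 03 it was called in AcPbKO mice too (-0.48, limma adjusted p = 0.0174), and with the Xist term the values were -0.42 in WT and -0.03 in AcPbKO mice (limma adjusted p = 0.0394 and 0.884). The difference between the genotypes in this SD effect was 0.39 ± 0.21 and did not pass (limma adjusted p = 0.986).

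The remaining beta members called in both genotypes were Pcdhb5, Pcdhb9 and Pcdhb13. Pcdhb9 had 624, 596 and 652 normalized counts in WT controls, 478, 456 and 522 in SD-WT, 547, 761 and 657 in AcPbKO controls and 458, 504 and 455 in SD-AcPbKO. Its log2 fold changes were -0.36 ± 0.09 and -0.46 ± 0.12 (limma adjusted p = 0.0129 and 0.0256), without overlap, and the call was lost in 2 of 6 fits without a library in WT and 4 of 6 in AcPbKO mice. Pcdhb13 fell by 0.45 ± 0.13 and 0.53 ± 0.17, and Pcdhb5 by 0.30 ± 0.09 and 0.40 ± 0.13 on the log2 scale. The call of Pcdhb5 was lost in 5 of 6 fits without a library in each genotype and that of Pcdhb13 in 3 of 6 in WT and 4 of 6 in AcPbKO mice. With the Xist term Pcdhb5 (-0.11 and -0.22, limma adjusted p = 0.494 and 0.151) and Pcdhb9 (-0.24 and -0.34, limma adjusted p = 0.19 and 0.0607) did not pass in either genotype. Pcdhb13 passed with that term in AcPbKO mice alone (-0.50 and -0.58, limma adjusted p = 0.0909 and 0.0465). In the fit of all 12 libraries without that term, the WT calls of Pcdhb5 and Pcdhb13 were already lost (limma adjusted p = 0.0677 and 0.0518). In WT alone, Pcdhb12 (-0.37 ± 0.09, limma adjusted p = 0.0173) and Pcdhb16 (-0.29 ± 0.08, limma adjusted p = 0.0234) were also called, and Pcdhb12 missed the threshold in AcPbKO mice with a similar value (-0.42 ± 0.14, limma adjusted p = 0.0505). The WT call was lost in 2 of 6 fits without a library for Pcdhb12 and 4 of 6 for Pcdhb16, and both were lost with the Xist term (-0.32 and -0.25, limma adjusted p = 0.148 and 0.103). Exons on the opposite strand cover 63.5% of Pcdhb12.

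Pcdhgc5, the last member of the gamma cluster and one described at inhibitory synapses, moved the other way. It had 8462, 6109 and 6340 normalized counts in WT controls, 10154, 9623 and 8193 in SD-WT, 6782, 7178 and 6448 in AcPbKO controls and 10098, 7427 and 8802 in SD-AcPbKO. In AcPbKO mice every SD library was above every control, and in WT CTL-WT 01 lay above SD-WT 04. The log2 fold change was 0.43 ± 0.12 in WT (limma adjusted p = 0.0261) and 0.36 ± 0.10 in AcPbKO mice (limma adjusted p = 0.0343). In the fit of all 12 libraries the WT call was kept and the AcPbKO call lost (limma adjusted p = 0.0295 and 0.0533). Adding the Xist term gave 0.28 and 0.21, neither past the threshold (limma adjusted p = 0.202 and 0.33), and the call was lost in 4 of 6 fits without a library in WT and 5 of 6 in AcPbKO mice.

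As a share of the gamma reads, Pcdhgc5 was at 32.1% ± 2.04 (SD, n = 3) in CTL-WT, 40.5% ± 0.21 in SD-WT, 32.1% ± 0.73 in CTL-AcPbKO and 39.3% ± 1.87 in SD-AcPbKO. Here no groups overlapped within a genotype, from 30.8% to 34.5% against 40.4% to 40.7% in WT and from 31.3% to 32.8% against 37.1% to 40.4% in AcPbKO mice. The share, chosen after the values of Pcdhgc5 were seen, does not depend on the size factors.

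The other gamma C-type members showed no call. Pcdhgc3 had 3447, 3040 and 3000 normalized counts in WT controls, 3289, 3146 and 2691 in SD-WT, 3157, 3088 and 3338 in AcPbKO controls and 3071, 2864 and 2863 in SD-AcPbKO, with log2 fold changes of -0.06 ± 0.09 and -0.12 ± 0.06 (limma adjusted p = 0.665 and 0.172). Pcdhgc4, required for interneuron survival, had 775, 594 and 593 normalized counts in WT controls, 621, 596 and 619 in SD-WT, 673, 662 and 639.5 in AcPbKO controls and 697, 588 and 621 in SD-AcPbKO, and changes of -0.09 ± 0.11 and -0.05 ± 0.09 (limma adjusted p = 0.612 and 0.695). The groups overlapped for both members, except that in AcPbKO mice every SD library lay below every control for Pcdhgc3.

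Among alternate gamma members, Pcdhga8 was called lower in WT (-0.40 ± 0.13, limma adjusted p = 0.046) although its groups overlapped, and Pcdhga7 was called lower in AcPbKO mice (-0.43 ± 0.12, limma adjusted p = 0.0275). The Pcdhga8 call was lost in 4 of 6 fits without a library and in the fit of all 12 libraries without (limma adjusted p = 0.124) and with the Xist term (limma adjusted p = 0.145). That of Pcdhga7 was lost in 4 of 6 fits without a library and kept with the Xist term (-0.53, limma adjusted p = 0.0174). Pcdhga7 just missed in WT (-0.32 ± 0.11, limma adjusted p = 0.0512), with 763, 619.7 and 749.9 normalized counts in WT controls, 591, 609 and 504 in SD-WT, 781, 768 and 662 in AcPbKO controls and 639, 488 and 516 in SD-AcPbKO. Pcdhgb1 was called higher in AcPbKO mice (0.40 ± 0.11, limma adjusted p = 0.029), where it had 399, 337 and 402 normalized counts in controls and 540.5, 450.2 and 506 after SD. This call was lost in 3 of 6 fits without a library and in the fit of all 12 libraries, both without (0.39, limma adjusted p = 0.112) and with the Xist term (0.17, limma adjusted p = 0.574). The most abundant alternate gamma member, Pcdhga11, gave -0.18 ± 0.10 and -0.06 ± 0.10, neither past the threshold.

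**Figure D4:**
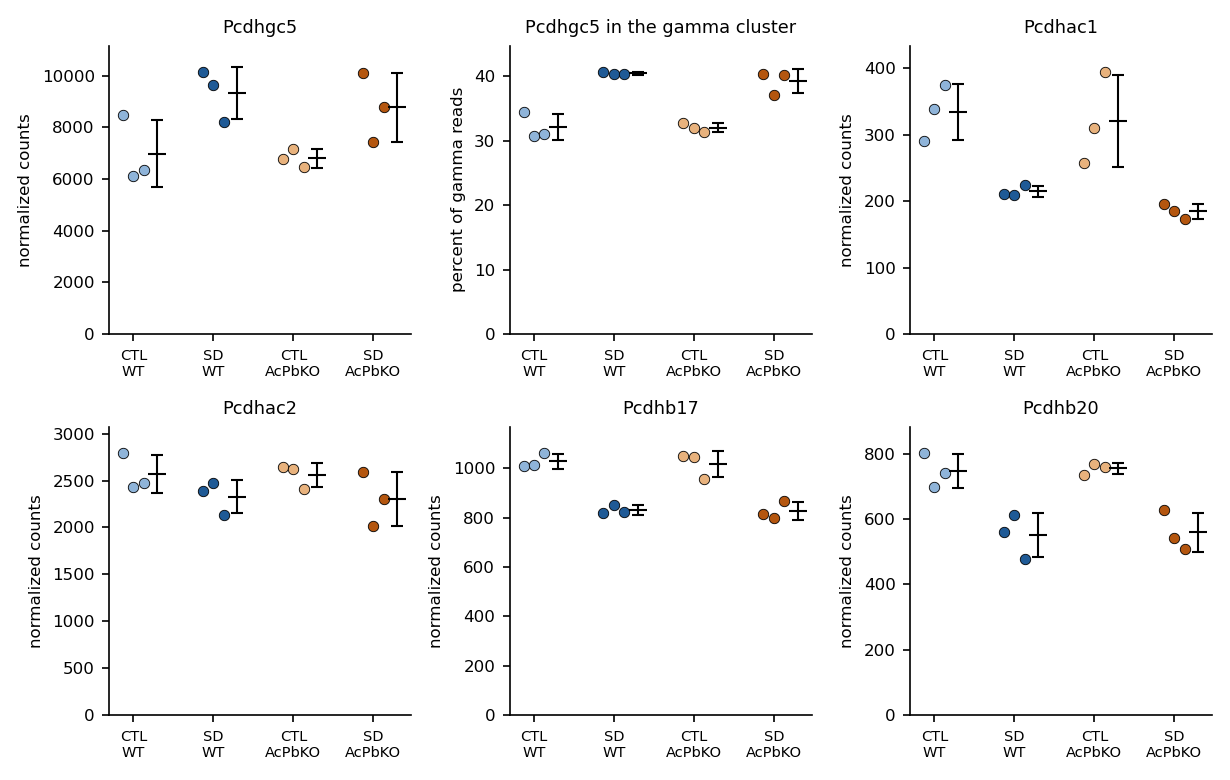
Normalized counts of Pcdhgc5, Pcdhac1, Pcdhac2, Pcdhb17 and Pcdhb20 and the percentage of gamma reads from Pcdhgc5 in each library (points), with the mean and SD of each group of 3, all axes from 0. Pcdhac1, Pcdhb17 and Pcdhb20 are lower in all SD libraries of a genotype, the Pcdhgc5 share is higher in all of them, and Pcdhac2 overlaps.

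The SD comparisons of WT and AcPbKO mice share no library. Of the 59 members, 51 had the same sign in both, 40 lower and 11 higher, and 11 were called in both with the same direction, 4 in WT alone and 4 in AcPbKO mice alone. Those called in both were Pcdha4, Pcdha10, Pcdha12, Pcdhac1, Pcdhb4, Pcdhb5, Pcdhb9, Pcdhb13, Pcdhb17, Pcdhb20 and Pcdhgc5. Across the 54 members with a mean of at least 10 normalized counts, the log2 fold changes had a Pearson r of 0.78 and a Spearman rho of 0.76, given as a description since members share libraries and are not independent. The shares of all genes with the same sign, or called in both, were not computed. These counts therefore do not show an agreement particular to the members. In both genotypes the SD libraries are also the deeper ones and the libraries with Xist reads are all controls.

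**Figure D5:**
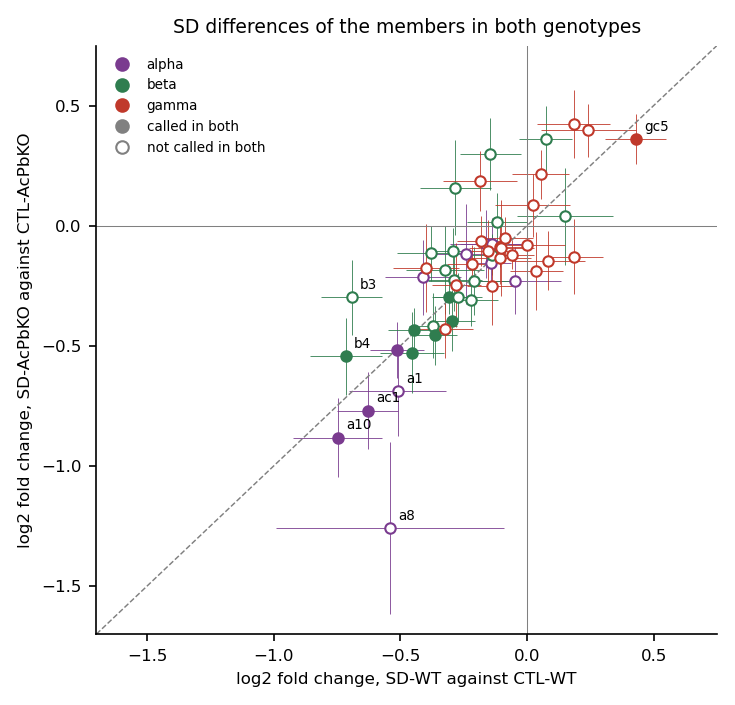
Log2 fold change after SD in WT (horizontal) against AcPbKO mice (vertical) for the 54 members with a mean of at least 10 normalized counts, with SE bars, filled where called in both, and a dashed line of equality. Most points lie in the lower left, Pcdha10 and Pcdhac1 are far down in both, and Pcdhgc5 is the filled point in the upper right.

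Between genotypes no member was called. In CTL-AcPbKO against CTL-WT, limma called 0 of 59 members and 0.0197% of 20273 genes. At an unadjusted p under 0.05 stood 3 members (5.08%; Pcdhb3, Pcdhb10 and Pcdhb11, all lower) and 8.53% of all genes by limma. DESeq2 and edgeR on recovered reads also called 0. The estimates of the 54 members ran from -0.38 (Pcdhb11) to 0.28 (Pcdha1) with a median SE of 0.12. In SD-AcPbKO against SD-WT, again 0 of 59 were called by limma, DESeq2 or edgeR, and limma called 0.0145% of 20621 genes. Here 1 member (1.69%; Pcdha12, -0.28 ± 0.10) and 6.13% of all genes had an unadjusted limma p under 0.05. A test of whether the SD effect differed by genotype called 0 of 59 members by limma, DESeq2 or edgeR, and 0% of 20978 genes by limma. For this difference 1 member (1.69%; Pcdhb10, 0.44 ± 0.19) and 839 genes in all had an unadjusted limma p under 0.05. Over the 54 members this difference had a median of 0.01, ran from -0.72 (Pcdha8) to 0.44 (Pcdhb2) and had a median SE of 0.19, so differences of the size of many SD effects were not detectable with 3 libraries a group. Alternate alpha members summed to 2246, 2009 and 2123 normalized counts in CTL-WT, 1936, 2061 and 1838 in CTL-AcPbKO, 1656, 1713 and 1702 in SD-WT and 1653, 1403 and 1581 in SD-AcPbKO. The control groups overlapped. After SD the highest AcPbKO sum (1653.2) lay barely below the lowest WT sum (1655.8), and this was not tested. The alpha, beta, gamma and whole-family sums overlapped between genotypes, both in controls and after SD.

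Genes of the machinery that acts on these promoters were also examined. Of 10 tested genes of cohesin and CTCF, 5 were higher after SD in WT and 6 in AcPbKO mice, and 0 were lower, where 13.2% and 14.1% of all genes were higher and 12.2% and 13.3% lower. With the Xist term 5 were higher in each genotype, without Rad21. Ctcf, whose protein marks the promoters and enhancers of the clusters, had mean normalized counts of 3579 in CTL-WT, 4623 in SD-WT, 3396 in CTL-AcPbKO and 4434 in SD-AcPbKO (0.37 ± 0.07 and 0.39 ± 0.07 on the log2 scale, limma adjusted p = 0.00434 and 0.00525). Smc1a, a ring subunit of cohesin, changed by 0.50 ± 0.07 and 0.57 ± 0.07, and Nipbl, which loads cohesin, by 0.46 ± 0.06 and 0.58 ± 0.09. Smc3 and Pds5a rose in both as well, and Rad21 in AcPbKO mice. Of 10 genes of DNA and histone methylation, 5 were higher in WT (Dnmt1, Dnmt3a, Smchd1, Setdb1 and Tet3), and in AcPbKO mice 3 were higher (Smchd1, Setdb1 and Tet3) and 1 lower (Trim28). With the Xist term 2 were higher in WT (Setdb1 and Tet3) and the AcPbKO counts stayed at 3 and 1. Tet3, which oxidises methylated cytosine, had the largest of these differences, 0.49 ± 0.06 and 0.34 ± 0.08, and Smchd1, a repressor of clustered protocadherin promoters, 0.19 ± 0.06 and 0.33 ± 0.07.

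Downstream of the proteins, 3 of 9 tested kinases and adaptors of the cytoplasmic tails were higher and 1 lower in each genotype. For this list and those below, 13.2% of all genes were higher and 12.2% lower in WT, and 14.1% and 13.3% in AcPbKO mice. Ptk2, the focal adhesion kinase held by alpha and gamma tails, rose by 0.36 ± 0.08 and 0.37 ± 0.09, and Pak1 by 0.39 ± 0.07 and 0.48 ± 0.09. The call of Ptk2 was lost with the Xist term in both genotypes (0.17 and 0.18, limma adjusted p = 0.0746 and 0.0545). Pdcd10, otherwise called higher in AcPbKO mice alone, was higher in both with this term (0.30 and 0.46, limma adjusted p = 0.0367 and 0.0035). In this fit 3 of the 9 were higher in WT and 2 in AcPbKO mice, with 1 lower in each. Marcks, a substrate of protein kinase C that binds actin, was lower, with log2 fold changes of -0.53 ± 0.09 and -0.53 ± 0.09. Of 10 WAVE complex genes, which drive actin branching and are bound by alpha tails, 0 were higher and Wasf1 was lower in both (-0.25 ± 0.06 and -0.36 ± 0.07), with Brk1 lower in AcPbKO mice. Of 9 genes of proteolysis and membrane partners, Psen2, Aph1a and Nlgn2 were lower in both genotypes, Psenen lower in AcPbKO mice and Adam10, the sheddase, higher in AcPbKO mice. With the Xist term 1 of these 9 was lower in WT (Nlgn2) and 3 in AcPbKO mice (Psen2, Aph1a and Nlgn2), and 0 were higher. In the WAVE complex this term left Brk1 uncalled and Abi1 called higher in both genotypes. No gene of these 5 lists was called between genotypes or for a genotype difference in SD effect.

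Of 17 tested genes beside and between the clusters, Ndufa2 and Rell2 were lower in both genotypes, Ik was higher in both, and Taf7 and Wdr55 were higher in AcPbKO mice. Ndufa2 had the largest difference, -1.07 ± 0.15 and -1.31 ± 0.12 (limma adjusted p = 0.00127 and 0.00061). The calls were 3 of 17 in WT and 5 of 17 in AcPbKO mice, where 25.4% and 27.4% of all genes were called. With the Xist term Rell2 (limma adjusted p = 0.213 and 0.107) and Wdr55 (limma adjusted p = 0.0651 in AcPbKO mice) were not called, and Taf7 was higher in both.

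Some markers of cell types also differed between SD and control libraries. The summed level of the 10 excitatory neuron markers was 93784 to 102030 normalized counts in CTL-WT and 82234 to 93373 in SD-WT, and 104960 to 109220 in CTL-AcPbKO and 93732 to 96886 in SD-AcPbKO, without overlap in either genotype. Of these markers 2 were called higher and 2 lower in WT and 2 higher and 1 lower in AcPbKO mice. Their median log2 fold change was -0.122 in WT and 0.126 in AcPbKO mice. Among all genes 13.2% were called higher and 12.2% lower in WT, and 14.1% and 13.3% in AcPbKO mice. Sums of the 8 inhibitory markers overlapped, at 44246 to 45225 in CTL-WT, 41900 to 46269 in SD-WT, 42725 to 47878 in CTL-AcPbKO and 44770 to 48717 in SD-AcPbKO, with 3 markers called higher and 1 lower in WT and 2 higher and 1 lower in AcPbKO mice. Of 8 oligodendrocyte markers 0 were higher and 5 lower in WT and 2 lower in AcPbKO mice, of 8 microglia markers 1 was higher and 1 lower in WT and 3 lower in AcPbKO mice, and of 8 endothelial markers 3 were higher and 1 lower in each. Astrocyte markers (8) had 2 lower calls in WT and 1 in AcPbKO mice, striatal markers (10) 2 lower in WT and 0 in AcPbKO mice, and choroid plexus markers (8) 1 higher in WT and 0 in AcPbKO mice. Of 5 red blood cell markers, 4 had 0 reads in every library. Oligodendrocyte markers with the Xist term were lower for 6 in WT and 3 in AcPbKO mice, and striatal markers for 3 and 0. In that fit excitatory markers had 1 higher and 1 lower in WT, and 1 higher and 2 lower in AcPbKO mice. Inhibitory markers had 1 higher and 1 lower in WT, and 3 higher and 1 lower in AcPbKO mice. Endothelial markers had 3 higher and 0 lower in WT, and 1 higher and 1 lower in AcPbKO mice. Of the microglia markers 0 were higher, with 1 lower in WT and 3 in AcPbKO mice. The part of these markers in the protocadherin values was not tested.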

How the data were processed

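RNA of somatosensory cortex was sequenced from 16 labelled samples, of which 12 had a column in the deposited tables. The authors aligned reads with HISAT2 2.2.1 to mm10 and counted reads per gene, with HTSeq according to the study's methods and featureCounts according to the submitters' processing notes, which also name DESeq2 1.31.16. The strand setting of the counting is not given in the sources used here. The values deposited by the authors are a signal, counts divided by DESeq2 size factors within each table of 6 libraries. The authors' log2 fold changes, test scores and p-values, also deposited, were not used. No per-sample column was left unmapped (0).

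Of 732630 values, 100.0% came out as whole reads within 0.01 of a read, and these reads were divided by median-of-ratios size factors over all 12 libraries for the values given per library. Each pair of groups was fitted in its own table with limma 3.58.1 in R 4.3.3 (log2(normalized count + 1), variance trend, 4 residual degrees of freedom, leaving out genes without reads in the fit), with Benjamini-Hochberg adjustment over all genes and a threshold of 0.05. The genotype difference in SD effect used all 12 libraries (8 residual degrees of freedom). Other settings were DESeq2 1.42.0 and edgeR 4.0.16 on recovered reads, other pseudocounts, filters and scaling, thinning to the smallest total, a term for Xist reads, the replicate block and each library left out. Fits without the 4 libraries with Xist reads, and fits of the gene lists with the Xist term, were chosen after seeing the data. The fits were tested on simulated data. Sources do not say that samples of a group were processed separately, so p-values measure the spread between these samples. With 3 against 3, an exact permutation test cannot go below p = 0.1.

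Members, gene lists and tests were chosen with earlier results of these data known. Named with values were the C-type members, the 3 members with the highest mean in each cluster, every member past the threshold, and from each list up to 4 genes past it. Positions are from RefSeq on GRCm38.p6 and exon lengths from GENCODE M21.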

Additional observations from a re-analysis of the deposited data

How the results depend on the processing

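The count of 15 members called after SD in WT and 15 in AcPbKO mice became 6 and 3 at an adjusted p under 0.01, 9 and 6 with no filter on low values, 9 and 10 with the Xist term, and 1 and 3 without the 4 libraries with Xist reads. Leaving out 1 library gave 9 to 14 calls in WT and 5 to 13 in AcPbKO mice. DESeq2 gave 16 and 15 calls, edgeR 17 and 17, and the other settings run between 11 and 18. With the replicate block 0 members were called in both, and 0 in the other comparisons where it could be fitted. This block uses up most residual degrees of freedom of a fit and pairs only the numbers found in both groups. Its lack of calls therefore does not decide whether the calls hold. Deviations of SD and control libraries with the same number correlated at 0.102 and -0.075 in WT and -0.141 and -0.018 in AcPbKO mice. Between genotypes the correlations were 0.216 and 0.231 after SD and -0.427 in controls. With both signs among these values, the numbers were not taken to pair samples. CTL-AcPbKO and CTL-WT share 1 number, so no block was fitted there. No genotype comparison called a member under any setting run.

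Log2 ratios of the alpha sums without the C-type members were -0.33 for SD in WT and -0.13 between control genotypes, and without the libraries with Xist reads -0.33 and -0.14. For beta, leaving out those libraries gave -0.16 for SD in AcPbKO mice and -0.21 between control genotypes. For gamma, SD in WT changed sign, from 0.092 to -0.11 without the C-type members and -0.093 without those libraries, and SD in AcPbKO mice from 0.07 to -0.09 without the C-type members. Control genotypes gave -0.25 without those libraries. The cause of these shifts was not tested. Low reads limit Pcdha4, Pcdha6, Pcdha7, Pcdha7-g and Pcdhb1, and 3 libraries a group limit the genotype comparisons.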

Other observations

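Of 12 non-clustered protocadherins, single genes outside the alpha, beta and gamma clusters, 2 were higher and 4 lower after SD in WT. In AcPbKO mice 1 was higher and 4 were lower. Among all genes 13.2% were higher and 12.2% lower in WT, and 14.1% and 13.3% in AcPbKO mice. Pcdh20 was lower in both, with log2 fold changes of -0.86 ± 0.09 and -0.83 ± 0.10 (limma adjusted p = 0.000293 and 0.00107). Pcdh11x was also lower (-0.39 ± 0.10 and -0.49 ± 0.11), as was Pcdh10, and Pcdh1 was higher in both (0.50 ± 0.10 and 0.45 ± 0.10). With a term for Xist reads in the fit of all 12 libraries, 1 was higher and 2 lower in WT and 0 higher and 3 lower in AcPbKO mice, where Pcdh20 was still lower in both (-0.76 and -0.73, limma adjusted p = 0.00156 and 0.000988). Pcdh11x, which is X-linked, had -0.37 and -0.47 in this fit (limma adjusted p = 0.0802 and 0.0256), Pcdh10 was called in neither genotype, and Pcdh1 in WT alone (0.39 and 0.33, limma adjusted p = 0.0481 and 0.074). Between genotypes 0 of the 12 were called by limma.

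Of 8 immediate early genes, which neurons switch on with activity, limma called 0 in WT. In AcPbKO mice it called 1 higher (Fosb, 0.57 ± 0.17) and 1 lower (Junb, -0.65 ± 0.19). The shares of all genes were 13.2% higher and 12.2% lower in WT, and 14.1% and 13.3% in AcPbKO mice. Adding the Xist term, limma called 5 of the 8 higher in each genotype and 0 lower, where 10.6% of all genes were higher in WT and 13.1% in AcPbKO mice. With this term Junb had 0.04 in AcPbKO mice (limma adjusted p = 0.849). The fit of all 12 libraries without this term called 0 in WT and 1 higher in AcPbKO mice.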
